A study of Homo sapiens with 7 samples.

Results

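The genes of de novo purine synthesis were examined for binding of the transcription factor Myc in HT29 cells, an established human colon cancer line. The set was 10 genes chosen by name out of 20033 protein-coding genes: PRPS1, PPAT, GART, PFAS, PAICS, ADSL, ATIC, IMPDH1, IMPDH2 and GMPS. A peak was assigned to a gene when its summit lay inside the gene's annotated span or within 20 kb of it, which gave 32 of the 47016 peaks on the nuclear chromosomes. Binding was mapped by CUT&RUN, in which an antibody directs a nuclease to cut DNA around the protein it recognises. All libraries came from HT29 cells held for 6 h in serum-free medium with oleic acid, a fatty acid, and no untreated cells were analysed here. By title there were 3 Myc libraries, 3 IgG controls and 1 input, although the antibody label of the IgG controls also names the Myc antibody. The deposited list gives 1 value per peak and none per library, so no spread between replicates could be given and no test was made between genes or conditions. It holds no expression values, so the cell line could not be checked against marker levels, and a peak says nothing of how much RNA the gene makes.

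Purine synthesis builds the ring of adenine and guanine stepwise on phosphoribosyl pyrophosphate (PRPP), a ribose phosphate that PRPS1 makes. The ring is closed as inosine monophosphate (IMP), from which one branch leads to AMP and the other to GMP. The pathway feeds DNA and RNA synthesis in growing cells, and several of its genes are known targets of Myc, which binds DNA together with MAX at a short sequence called the E-box.

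Promoter sequences are shown for 5 members, with canonical E-boxes in PPAT and ATIC, variants in PFAS and IMPDH1, and neither in the PAICS window. They are windows of RefSeq (GRCh38.p14), 5′ to 3′ on the strand of each gene, from 250 bases before the start to 30 bases after it. A start was listed for 8 of the 10 genes, and the windows of ADSL and IMPDH2 were not used here. In PPAT, PFAS, ATIC and IMPDH1 the capitals mark the canonical E-box CACGTG or one of its variants, read on either strand. In PAICS they mark the 11 bases centred on the peak's summit.
PPAT, chr4:56435586-56435865, minus strand: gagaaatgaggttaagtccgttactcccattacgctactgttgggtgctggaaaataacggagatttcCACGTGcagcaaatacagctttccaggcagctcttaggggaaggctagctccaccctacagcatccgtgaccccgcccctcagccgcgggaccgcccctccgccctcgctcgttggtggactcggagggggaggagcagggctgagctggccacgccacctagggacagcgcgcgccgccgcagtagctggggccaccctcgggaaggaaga
PAICS, chr4:56436010-56436289, plus strand: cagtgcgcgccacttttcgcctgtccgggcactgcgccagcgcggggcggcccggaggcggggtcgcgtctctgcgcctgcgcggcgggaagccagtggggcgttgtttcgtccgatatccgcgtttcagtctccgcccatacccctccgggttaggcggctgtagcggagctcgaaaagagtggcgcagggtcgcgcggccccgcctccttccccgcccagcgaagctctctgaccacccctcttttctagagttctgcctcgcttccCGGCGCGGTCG
PFAS, chr17:8249039-8249318, plus strand: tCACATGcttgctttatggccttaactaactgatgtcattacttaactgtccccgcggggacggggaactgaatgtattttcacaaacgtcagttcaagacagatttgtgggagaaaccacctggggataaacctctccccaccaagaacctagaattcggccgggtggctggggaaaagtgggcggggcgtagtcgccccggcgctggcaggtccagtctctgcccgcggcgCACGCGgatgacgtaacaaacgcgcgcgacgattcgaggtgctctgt
ATIC, chr2:215311809-215312088, plus strand: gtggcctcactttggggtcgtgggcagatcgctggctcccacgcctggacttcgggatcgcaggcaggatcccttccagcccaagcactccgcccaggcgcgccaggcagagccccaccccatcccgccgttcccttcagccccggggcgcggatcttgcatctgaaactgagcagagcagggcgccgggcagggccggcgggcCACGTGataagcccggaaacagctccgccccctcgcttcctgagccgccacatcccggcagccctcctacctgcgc
IMPDH1, chr7:128409953-128410232, minus strand: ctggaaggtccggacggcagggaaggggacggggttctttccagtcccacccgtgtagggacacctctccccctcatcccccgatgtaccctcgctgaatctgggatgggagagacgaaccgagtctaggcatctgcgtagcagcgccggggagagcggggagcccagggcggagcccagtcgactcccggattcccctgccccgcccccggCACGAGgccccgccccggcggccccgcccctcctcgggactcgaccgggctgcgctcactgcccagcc

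All 10 genes had a Myc summit within 1 kb of a start, PPAT and PAICS by the same summit, against 57.3% of all protein-coding genes. The members were chosen by name, with earlier results of these data known, so no interval was given to the share. For ADSL and IMPDH2, as for 4192 of all genes, no start was listed and either end of the span was taken in its place. The strongest such peak of each gene had a median fold enrichment of 13.0 over the 10 genes and ranged from 6.50 to 41.2. With the peak shared by PPAT and PAICS counted once, the median was 12.8 over 9 peaks. The fold is the authors' ratio of the Myc signal at the summit to the control level. For PPAT, PAICS, GART, PFAS, ADSL and IMPDH2 that level was 5.09, the lowest in the list. Over the 11486 protein-coding genes with a start peak the median was 7.89, with the quartiles at 5.57 and 11.1. The start peaks of 9 of the 10 members stood above that median, PPAT and PAICS by the same peak, and the exception was GMPS. All 10 also had a peak by the 20 kb rule, against 79.7% of all genes, so that count is read against a high background. Counting either end of the span in place of the listed starts, 8 of the 10 had a summit within 1 kb, against 56.4% of all genes. Each fold carries a 95% interval, computed as an exact Poisson one from the number of fragments over the summit (the pileup), which covers counting error only. The control level was held fixed in it. The intervals of PRPS1, IMPDH2 and GMPS included the median of 7.89, so on which side of it these genes lie is not settled.

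**Figure D1:**
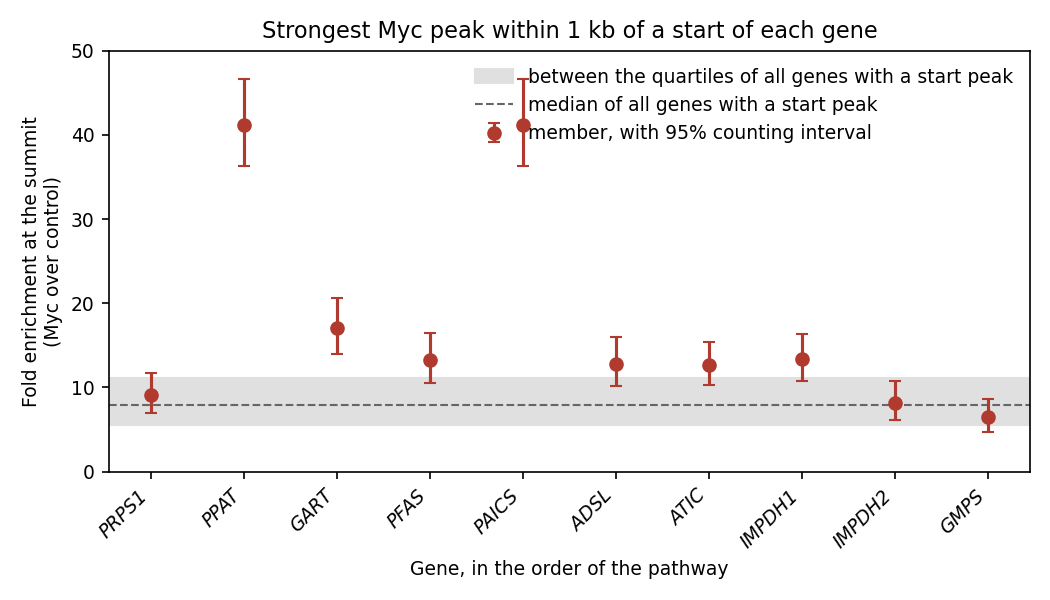
Fold enrichment (Myc over control) of the strongest peak within 1 kb of a start, for each member in the order of the pathway; bars are 95% counting intervals, the dashed line is the median and the grey band runs between the quartiles of all 11486 genes with a start peak. PPAT and PAICS share the peak at 41.2, and only GMPS, at 6.50, lies below the dashed line at 7.89. The bars of PRPS1, IMPDH2 and GMPS cross that line.

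At the entry to the pathway, PRPS1 had a peak of common strength and PPAT one of the strongest of any gene. PRPS1, the PRPP synthetase gene (chromosome X, 107628510 to 107651026), had a single assigned peak, with its summit at 107628604, 94 bp inside the gene. The fold there was 9.14 (95% interval 6.99 to 11.7), from 59 fragments over a control level of 5.57, and 61.2% of genes with a start peak had a lower value. PPAT encodes the amidotransferase that commits PRPP to purines (chromosome 4, 56393362 to 56435615). Its start peak had a fold of 41.2 (36.3 to 46.6), from 250 fragments over a control level of 5.09, the lowest level in the list. The counting intervals of the PRPS1 and PPAT peaks lay far apart.

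PAICS, the next gene along chromosome 4 (56410507 to 56464578), encodes the enzyme that carboxylates and extends the imidazole ring, and it shared the PPAT peak. RefSeq lists 3 starts for PAICS. The ones at 56435752 and 56436260 lie 137 and 645 bp from the PPAT start at 56435615, on the opposite strand, so that the genes are transcribed away from each other. The peak interval, 4491 bp wide from 56433645 to 56438135, covered the PPAT start and both of these PAICS starts. Its summit at 56436284 lay 24 bp downstream of the PAICS start at 56436260 and 669 bp upstream of the PPAT start. By position the summit was thus closer to PAICS, and the list cannot divide the signal between the genes. The peak ranked 4 by fold among the 11486 genes and was wider than the start peaks of 98.6% of them.

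The span of PAICS begins 25108 bp away at the first listed start, inside PPAT. Near that start, at 56410507, 2 narrow peaks were listed, with folds of 3.63 (2.49 to 5.14) at 56410268 and 2.74 (1.66 to 4.30) at 56411387. A further weak peak at 56425221, inside both spans, had a fold of 2.72 (1.78 to 4.0). All 3 lay below the median fold of 4.11 over all peaks. The remaining assigned peaks at this locus sat at starts of flanking genes. AASDH had a fold of 10.1 at 56387304, 187 bp from its start, and SRP72, which encodes a subunit of the signal recognition particle, had 13.9 at 56467824, 207 bp from its start.

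The other ring-assembly genes had start peaks with folds between 12.7 and 17.1. GART encodes an enzyme with several activities that adds glycine and a formyl group and closes the imidazole ring (chromosome 21, 33503931 to 33542893). Its summit at 33542055 had a fold of 17.1 (14.0 to 20.7) from 103 fragments, above 93.8% of genes with a start peak, in an interval of 2798 bp. The summit lay 62 bp downstream of the start listed at 33542117, and 834 and 837 bp from those at 33542889 and 33542892. The same interval covered all 3 starts, and the summit was also 983 bp from the start of SON, an RNA-binding protein gene on the opposite strand whose start is 146 bp from the GART start at 33542892.

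PFAS encodes the synthase that brings the next nitrogen from glutamine into the chain (chromosome 17, 8247608 to 8270486). Its summit at 8249510 had a fold of 13.3 (10.6 to 16.5) from 80 fragments and lay 221 bp downstream of the listed start at 8249289. That start lies inside the annotated span, which overlaps that of its neighbour CTC1. The higher end of the CTC1 span was 1454 bp from the summit, beyond the 1 kb used for sharing. ADSL encodes the lyase that acts both before IMP and on the way to AMP (chromosome 22, 40346500 to 40387527). The summit at 40346601, 101 bp inside the lower end of the span, had a fold of 12.8 (10.1 to 16.0) from 77 fragments. ATIC encodes the enzyme of the last formyl transfer and the closure to IMP (chromosome 2, 215312059 to 215368592). Its single assigned peak, at 215312215 and 156 bp downstream of the start, had a fold of 12.7 (10.3 to 15.4) from 99 fragments over a control level of 6.88. The intervals of GART, PFAS, ADSL and ATIC overlapped one another, and all lay below that of the PPAT and PAICS peak.

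At GMPS and IMPDH2 the GMP branch carried the lowest start folds of the set, and at IMPDH1 a fold of ordinary strength for the pathway. IMPDH1 and IMPDH2 encode the isoforms of the dehydrogenase that turns IMP into xanthosine monophosphate, and GMPS the synthetase that makes GMP from it. IMPDH1 (chromosome 7, 128392277 to 128409982) had a fold of 13.3 (10.8 to 16.4) at 128410198, 216 bp upstream of its start, from 91 fragments. IMPDH2 (chromosome 3, 49024325 to 49029398) had 8.21 (6.11 to 10.8) at 49029262, 136 bp inside the higher end of its span, from 49 fragments. The intervals of the isoforms met at their edges, with the upper bound of IMPDH2 just above the lower bound of IMPDH1. GMPS (chromosome 3, 155869430 to 155944020) had 6.50 (4.76 to 8.67) at 155870498, 152 bp upstream of the start listed at 155870650, from 44 fragments. Of genes with a start peak, 84.9% had a lower fold than IMPDH1, 52.5% than IMPDH2 and 35.2% than GMPS. The GMPS interval lay wholly below those of PPAT, PAICS, GART, PFAS, ADSL, ATIC and IMPDH1 and overlapped those of PRPS1 and IMPDH2. The intervals of PRPS1 and IMPDH2 also overlapped each other.

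Shape varied apart from strength. The GMPS peak was 2144 bp wide, wider than 75.0% of start peaks, although its fold was the lowest of the set. The ATIC and ADSL peaks, with folds of 12.7 and 12.8, were narrower at 1286 and 1356 bp, and the IMPDH2 peak was the narrowest at 1145 bp. Widths above 2000 bp were found at 5 of the 10 members, against 29.9% of all genes with a start peak. These members were PPAT and PAICS, by their shared peak, and GART, PFAS and GMPS. Summits within 250 bp of a start were found at 9 of 10 members, all but PPAT, against 59.1% of all genes with a start peak. The summit was shared with a start of another protein-coding gene at PPAT, PAICS and GART (3 of 10), against 23.1% of all genes with a start peak.

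**Figure D2:**
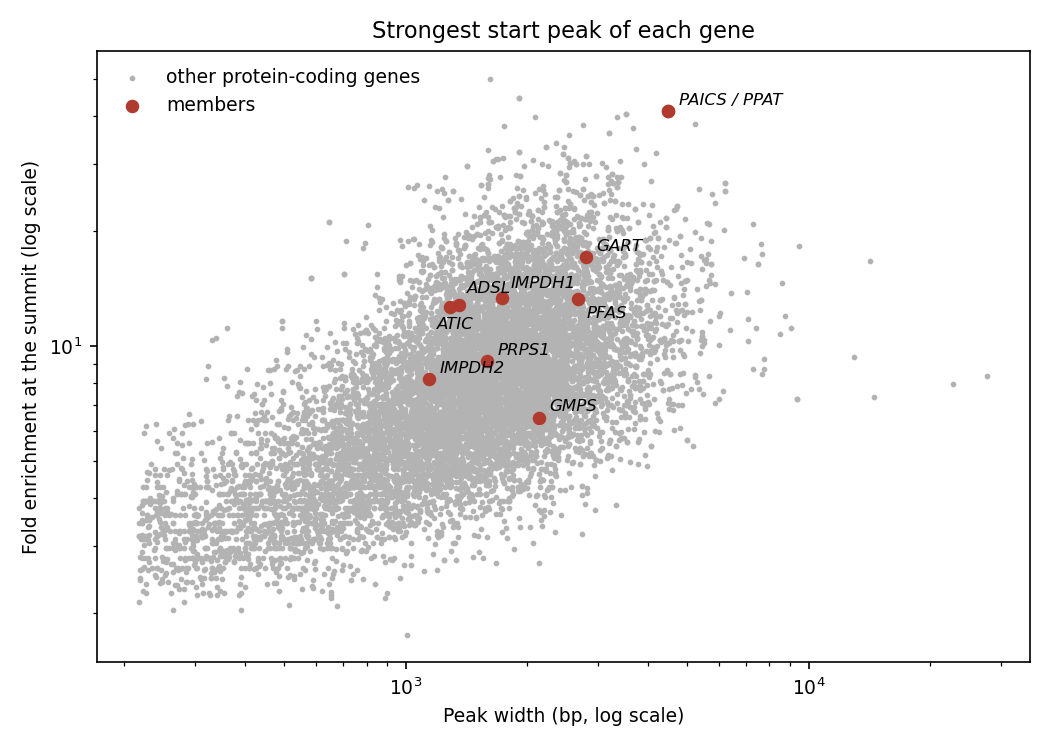
Fold enrichment at the summit against peak width (both log scales) for the strongest start peak of each protein-coding gene; red points are the members. The shared PPAT and PAICS peak stands at the upper right, at 41.2 and 4491 bp, and GMPS is wide for its fold of 6.50.

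By distance in log2 fold and log2 width together, the start peaks most like that of PPAT, after PAICS, belonged to 4 genes out of 11486. MXD1, whose protein competes with Myc for MAX, had a fold of 38.1 and a width of 5240 bp. CIC, a transcriptional repressor gene, had 37.3 and 3663 bp, and CCDC47 and DDX42 shared a peak with 40.5 and 3526 bp.

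Beyond the starts, the assigned peaks were mostly weak where they lay away from any start considered here. Only listed starts or span ends of protein-coding genes were considered. Other starts, and those of noncoding genes, were not checked. Of the 32 peaks, 12 lay within 1 kb of a start of a member or, for ADSL and IMPDH2, of an end. These had a median fold of 10.9. Another 9 lay at starts of other protein-coding genes, with a median of 8.22, 6 lay elsewhere inside a member with a median of 3.45, and 5 lay outside with a median of 3.24. Peaks per gene ranged from 1 at PRPS1 and ATIC to 7 at ADSL and IMPDH1, and their median of 3 stood beside 2 over all protein-coding genes.

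**Figure D3:**
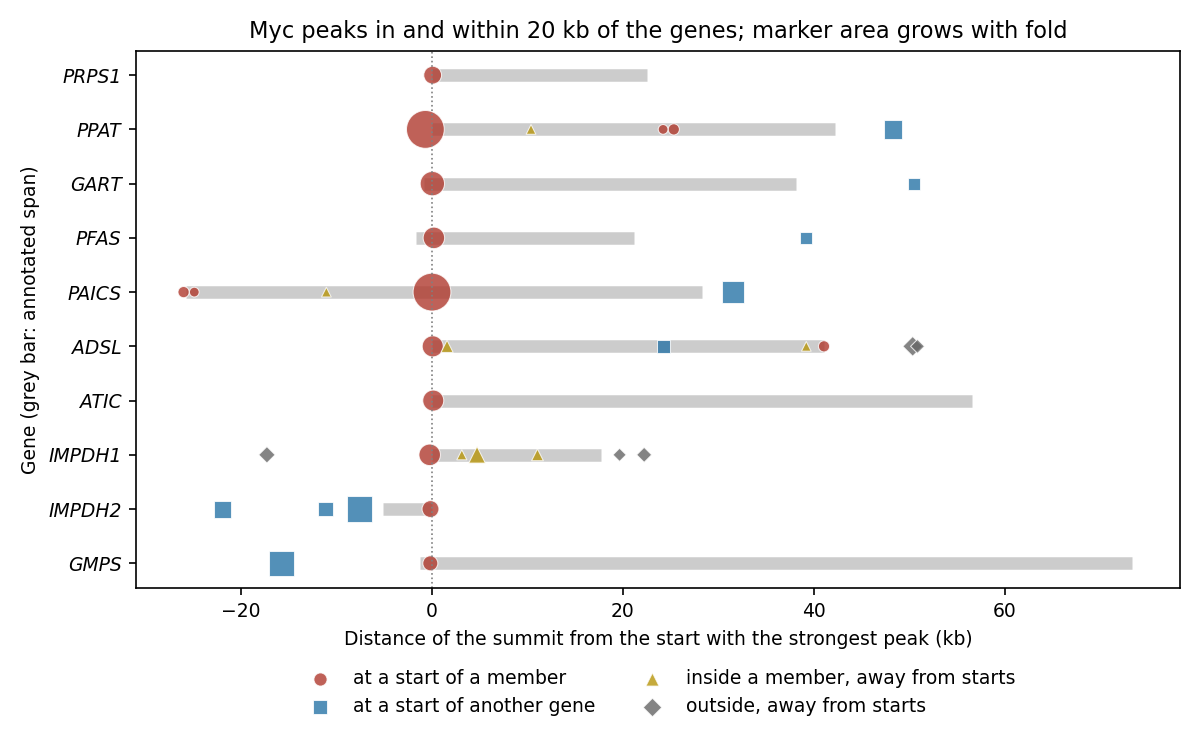
Every assigned peak by gene; the x axis is the distance in kb of the summit from the start with the strongest peak, along transcription, or along the chromosome for ADSL and IMPDH2, where no strand was used. Marker area grows with fold, and the largest markers away from the dotted line, at IMPDH2 and GMPS, belong to starts of neighbouring genes.

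Inside IMPDH1, 3 peaks lay downstream of the start. The one at 128405240, 4742 bp from the start, had a fold of 7.96 (5.93 to 10.5) and a width of 1275 bp. Among the assigned peaks away from the starts and ends considered, 6 inside a member and 5 outside, it was the strongest. The others inside the gene, at 128398911 and 128406834, had 3.99 (2.84 to 5.47) and 2.90 (1.80 to 4.45). At ADSL the peak 53 bp beyond the higher end, at 40387580, had a fold of 3.61 (2.30 to 5.43). Inside ADSL the peaks at 40348100 and 40385725 had 4.27 and 2.68, and the one at 40370815, with 4.87, lay 221 bp from an end of SGSM3. Outside the gene, 9341 bp from its end, a peak of only 346 bp had 5.58 (3.89 to 7.77).

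At IMPDH2 and GMPS the strongest peak within 20 kb was that of a neighbour. The peak at 49021840, 2485 bp below the IMPDH2 span and 190 bp from the start of the mitochondrial complex I assembly gene NDUFAF3, had a fold of 18.3 (15.1 to 21.9) against 8.21 at IMPDH2 itself. Further along lay peaks at the starts of DALRD3 (5.98) and WDR6 (8.22). The peak at 155854944, 517 bp from the start of the acetyl-CoA transporter gene SLC33A1 and 14486 bp from the GMPS span, had 18.4 (15.2 to 22.1) against 6.50 at GMPS. In both cases the neighbour's interval lay above that of the member. The neighbours of PFAS and GART had less, with 4.27 at RANGRF and 4.02 at DNAJC28. The last summit inside the 20 kb limit was the one at RANGRF, 18005 bp from PFAS, and the first outside it lay 22232 bp from PRPS1 with a fold of 3.94.

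The canonical E-box CACGTG stood in a promoter window of 3 of the 8 members with a listed start, PPAT, PAICS and ATIC, against 10.9% of 15839 genes. These are 2 places in the genome, because PPAT and PAICS share theirs. It lies at chr4:56435792-56435797, at position -182 from the PPAT start and beginning at base 41 from the PAICS start at 56435752, counting the start as base 1 and the base before it as -1. Its centre was 489 bp from the summit of the shared peak, and the 300-base window around the PAICS start nearest that summit held none. ATIC had a pair of them, at position -46 and beginning at base 30, and their centres were 199 and 124 bp from the summit.

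Of the searched variants, CACGCG was found in PFAS at position -17, 235 bp from the summit, and 18.1% of genes hold it. CACGAG was found in IMPDH1 at position -38, 180 bp from the summit, and 9.62% of genes hold it. CATGTG was found in PFAS, on the other strand at position -249, and in PAICS at the weakly bound first start, and 11.5% of genes hold it. CATGCG was found in none of the members and in 10.3% of genes. PRPS1, GART and GMPS held none of these 5 sequences in their windows. Both strands were searched for each. The broader form CANNTG, which includes CACGTG and CATGTG, occurred in 6 of 8 members and in 70.5% of genes.

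Other promoter elements were searched in the same windows. The GC box GGGCGG was in a window of all 8 members and of 64.3% of genes. The CCAAT box stood in PRPS1 and GART (42.1% of genes), with 3 matches before the GART start at 33542892. The ETS core CCGGAA stood in GART and ATIC (26.6% of genes), and the CRE core TGACGT in GART and PFAS (11.7%). The NRF1-like GCGCATGC was in no member and in 4.89% of genes. A match is a string of letters, and whether Myc or another factor occupied it was not tested.

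Around the pathway, 22 of 27 other genes of purine metabolism had a summit within 1 kb of a start. That is 81.5%, against 57.3% of all genes. The listed genes were also picked by name with earlier results known, so the share carries no interval. Their median fold was 7.53, close to the 7.89 over all genes with a start peak and below the 13.0 of the 10 members. The salvage genes, which recycle bases and nucleosides, all had a peak (4 of 4), led by ADK, the adenosine kinase gene, with 22.2 (18.6 to 26.2) and APRT, which salvages adenine, with 18.5 (15.4 to 22.0). HPRT1 and PNP had 7.15 and 7.19. The ADK peak was shared with AP3M1.

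The nucleotide kinase genes examined also all had one (6 of 6, against 57.3% of all genes). NME2 had 22.0 (18.4 to 26.0), NME1 19.2 (16.2 to 22.7) and the guanylate kinase gene GUK1 11.6, while AK3, AK4 and AK1 had 9.03, 5.08 and 3.94. On the branch from IMP to AMP, ADSS2 had 7.50 (5.79 to 9.57) and the ADSS1 gene 3.61 (2.30 to 5.43), both under the start peak of ADSL, the gene of the following step. Of the PRPP supply genes, PRPSAP1 and PRPSAP2, which encode proteins associated with the synthetase, had 14.3 (11.9 to 17.1) and 5.74 (4.03 to 7.96). No summit lay within 1 kb of PRPS2 or PRPS1L1, paralogs of PRPS1, with the nearest at 155739 and 87159 bp.

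Among the deamination and interconversion genes 4 of 6 had a peak (66.7%), close to the 57.3% of all genes. They were AMPD2 with 10.7, AMPD3 with 8.58, GMPR2 with 7.55 and ADA with 3.28. GMPR and AMPD1 had none, with the nearest summit at 39107 and 21108 bp. Among the breakdown genes 4 of 5 had a peak, against the same 57.3%: NT5C with 10.7, SAMHD1 with 6.10, NT5C2 with 5.46 and GDA with 5.27. XDH, the xanthine dehydrogenase gene, had its nearest summit at 15417 bp. The AMPD2 summit was shared with a start of GNAT2 and that of GMPR2 with NEDD8, and the NME1 summit with the NME1-NME2 readthrough.

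**Figure D4:**
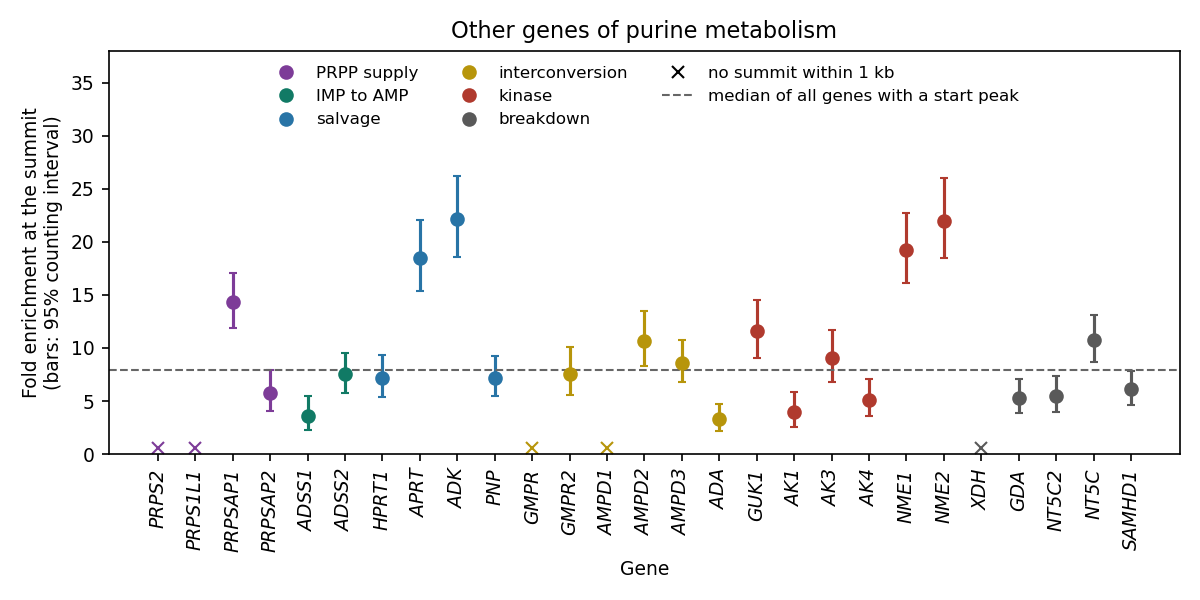
Fold enrichment of the strongest start peak for 27 other genes of purine metabolism, coloured by role, with 95% counting intervals; crosses mark the 5 genes with no summit within 1 kb of a start and the dashed line the median of all genes with a start peak. ADK, NME2, NME1 and APRT are highest, and none reaches the 41.2 of PPAT and PAICS.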

How the data were processed

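CUT&RUN libraries of HT29 cells were grouped by title into Myc, IgG and input. The submitters' processing notes name MACS2 2.1.2 for peaks and BWA 0.7.15 for alignment, on hg38, beside deepTools 3.5.0, HOMER 4.11.1, Picard 2.19.0, SAMtools 1.5 and FastQC 0.11.7. Settings, the control library and how replicates were joined are not given in the sources used. The deposited peak list gives for each peak a fold (a ratio of Myc to control), a −log10 p-value, a −log10 q-value, an integer score and the summit position. The score was not used. The lowest deposited −log10 q was 1.30.

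Pileups and control levels were solved from the fold, (pileup + 1)/(control + 1), and the Poisson p-value. A whole pileup matched within 0.001 for all 47016 peaks on nuclear chromosomes, and the procedure was tested on simulated data. The median pileup was 29 and the lowest 14, and sites below the deposited q limit are not in the list. Genes came from RefSeq GRCh38.p14, and starts from its promoter table, which lists 15841 of 20033 protein-coding genes. Other genes were taken at both span ends. Positions count from 1. The members, the gene lists, the motifs and all comparisons were chosen with earlier results of these data known. Named genes were the members, the listed purine genes, genes at or next to assigned summits, and the 5 start peaks nearest PPAT in log2 fold and log2 width. One gene of the purine lists is not reported here and was left out of their counts. Values per library were not used, and fragments carry no molecular identifiers. Python 3.11.15, pandas 2.3.3, numpy 2.4.6 and scipy 1.17.1 were used.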

Additional observations from a re-analysis of the deposited data

How the results depend on the processing

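Of 17 alternative settings, 15 kept counts within 1.5 times of the reported value, or the median fold between 10.5 and 16.2. Those bounds are the medians of the members' lower and upper interval bounds, and are not an interval of the median itself. Taking 1 summit per interval changed nothing, with 10 members and 32 peaks as before. The count of assigned peaks moved from 32 to 49 with a flank of 50 kb, and to 19 with only peaks of −log10 q of at least 10. A start peak was found for all 10 members at windows of 2000 and 5000 bp (61.2% and 65.6% of all genes). Those windows could not lower a count already at 10 of 10, so they tested nothing. All 10 also had one at −log10 q of at least 10 (49.5%), and 9 at 500 bp (50.4%). The member lost was PPAT, whose summit lay 669 bp from its start. With either end of the span taken for every gene, chosen after seeing the data, 8 of 10 had one, without PFAS and GMPS (56.4% of all genes). The median fold of the members ranged from 12.7 to 15.2 over its alternatives. The 15.2 took the strongest peak within 20 kb of the span, a neighbour's at IMPDH2 and GMPS, and stood beside 8.80 over all genes. The 12.7 took either end of the span, over the 8 members with a peak there, and stood beside 7.86. CACGTG before the start only was found in 2 members, PPAT and ATIC, rather than 3, which is at the limit of 1.5 times. It was found in 9.74% of genes. No paired analysis was possible because the list holds no value per library, and no library could be left out for the same reason.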

Other observations

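The value given to a gene depends on which start is taken. For PAICS the peak within 1 kb of the lower end of the span had a fold of 3.63, whereas the start at 56436260 gave 41.2. For ADSL the summit nearest to an end, 53 bp from the higher one, had 3.61, and the one 101 bp from the lower end had 12.8.

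Over all listed starts of protein-coding genes, 67.0% of the 1850 windows with CACGTG had a summit within 1 kb, against 54.3% of the 20322 windows without it. The median fold of the strongest summit was 8.96 in the first set and 7.89 in the second. Windows of one gene overlap and are not independent, and open chromatin and base composition were not matched between the sets.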
